A study of Mus musculus with 8 samples.

Results

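The H3K4 methyltransferases and the core subunits that they share were examined in the prefrontal cortex (PFC) and striatum of mice that carry 1 mutated copy of Setd1a. The members were taken by gene symbol and make up 10 of the 31053 genes in the count tables: the 6 methyltransferases Setd1a, Setd1b, Kmt2a, Kmt2b, Kmt2c and Kmt2d, and the 4 core subunits Wdr5, Ash2l, Rbbp5 and Dpy30. All 10 were detected in every library. The question was whether the paralogs of Setd1a, or the core subunits, were expressed at a different level in Setd1a+/- mice, and in which cells of the brain each member is expressed.

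The data are 8 droplet-based single-cell RNA libraries made with the 10x platform, which counts unique molecular identifiers (UMIs) near the 3′ end of each transcript. Each tissue has 2 libraries from WT mice and 2 from Setd1a+/- littermates, all male, of the strain C57BL/6N and untreated, and the dissected tissue of 2 mice was pooled in each library. The labels give an age of 8 to 10 weeks and call the striatal tissue NAc, whereas the study's methods give an older age and describe dorsal and ventral striatum; the tissue is called striatum here. The mutated allele is a single line with an 8-bp frameshift in the 15th coding exon of Setd1a, made by CRISPR-Cas9 in hybrid embryos and backcrossed to C57BL/6N, so that no second allele tells the mutation apart from the line.

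Methylation of lysine 4 of histone H3 marks active promoters as H3K4me3 and enhancers as H3K4me1. In mammals it is written by 6 SET domain enzymes in complexes known as COMPASS, each built on a common module of WDR5, ASH2L, RBBP5 and DPY30 that the enzymes need for full activity. SETD1A and SETD1B carry out much of the trimethylation at promoters, KMT2A (MLL1) and KMT2B (MLL2) act at selected promoters together with menin, and KMT2C (MLL3) and KMT2D (MLL4) are known for monomethylation at enhancers. Mutations in several of them cause neurodevelopmental disorders in humans.

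Setd1a lies on chr7:127776670-127800122 on the plus strand of GRCm38 (GENCODE vM21). The exon that carries the frameshift is shown because its place in the transcript sets what the counts can say about the allele. Coding exon 15 of the transcript Setd1a-201 spans chr7:127797327-127797437 on the plus strand, is 111 bases long and is read here in the unmutated reference, with no base singled out.

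Setd1a coding exon 15: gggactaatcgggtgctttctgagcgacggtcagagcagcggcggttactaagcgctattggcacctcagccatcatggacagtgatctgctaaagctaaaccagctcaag

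The SET domain follows in coding exons 16 to 18. The end of coding exon 15 lies 1075 bases before the 3′ end of the 6487-base transcript, so a UMI at the 3′ end does not cover the mutated bases. The Setd1a level therefore checks neither the genotype nor which allele a transcript came from.

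The other methyltransferase genes are Setd1b on chromosome 5, Kmt2a on 9, Kmt2b on 7, Kmt2c on 5 and Kmt2d on 15, and the core subunit genes are Wdr5 on 2, Ash2l on 8, Rbbp5 on 1 and Dpy30 on 17. Kmt2c is the longest of these genes, with 226986 bases, and Kmt2b the shortest, with 19869 bases. A gene on the opposite strand of Kmt2a, AC061963.1, had 42 UMIs over all annotated cells, and an overlapping gene on the strand of Setd1a, Gm49388, had 0. UMI counts from the 3′ end were not divided by length, and levels were not compared between genes.

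The authors' annotation covers 23687 cells, 1508 to 2680 per PFC library and 2495 to 4361 per striatal library, with 5999666 to 13521114 UMIs per library in annotated cells and a median of 2302.5 to 3042 UMIs per cell. Levels are given as CPM, counts scaled to a common total of UMIs over the cells in question, library by library. The libraries differ in cell makeup. Neurons were 17.5% of the cells of PFC WT 1 and 35.8 to 48.1% in the other PFC libraries, and 77.9% of the cells of striatum Setd1a+/- 2 and 27.8 to 55.2% in the other striatal libraries. Striatum Setd1a+/- 2 held 496 non-neuronal cells. Any pair of libraries shared at most 24 cell barcodes. Of the marker genes of the annotated types, 30 of 32 in the PFC and 29 of 31 in the striatum were highest in their own type. The exceptions were Cux2, which was highest in SL-Myh7 neurons, Etv1, which was highest in DL-Tshz2 neurons and not in the subtype named DL-Etv1, Gad2, which was highest in D1 medium spiny neurons (MSNs), and Pvalb, which was highest in newly formed oligodendrocytes (NFO).

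The first comparison asked whether any member differed between WT and Setd1a+/- libraries when all annotated cells of a tissue were summed. No member passed the test in either tissue. Setd1a, the mutated gene, was lower in the Setd1a+/- library of every pair of libraries with the same replicate number, by a similar factor in both tissues. Sums over all cells do not separate fewer cells of a type from less RNA per cell.

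In the PFC, Setd1a was at 8.45 and 11.2 CPM in the WT libraries against 5.59 and 9.33 CPM in Setd1a+/-, from 46 to 119 UMIs per library. In the striatum, it was at 13.4 and 15.2 CPM in the WT libraries against 9.16 and 12.5 CPM in Setd1a+/-, from 86 to 206 UMIs. The 2 genotypes overlapped in the PFC, where Setd1a+/- 2 lay above WT 1, and did not overlap in the striatum. The mean of the Setd1a+/- libraries was 0.762 of the WT mean in the PFC and 0.754 in the striatum. With edgeR's quasi-likelihood test, the log2 fold change of Setd1a+/- over WT was −0.39 in the PFC (95% interval −1.46 to 0.68) and −0.38 in the striatum (−1.11 to 0.35), and neither passed. When 1 library was left out, it ranged from −0.85 to −0.02 in the PFC and from −0.64 to −0.15 in the striatum. A single fit of all 8 libraries, with a term for each tissue and replicate number, gave a log2 fold change of −0.39 (95% interval −0.77 to −0.02), which is a fold of 0.762 (0.588 to 0.987), with an unadjusted p of 0.0416 and an edgeR FDR of 0.9998. The fit took PFC and striatal libraries as independent, although it is not stated whether both tissues came from the same mice. If they did, its interval could be too narrow and its p too small. This fit was chosen after the data had been seen. In it, 2.32% of the 15113 genes tested had an unadjusted p under 0.05, and 1.14% had one in the lower direction. Without the term for replicate number, the unadjusted edgeR p was 0.154. Without any 1 library the estimate lay between −0.46 and −0.34, and the unadjusted edgeR p between 0.052 and 0.128.

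**Figure D1:**
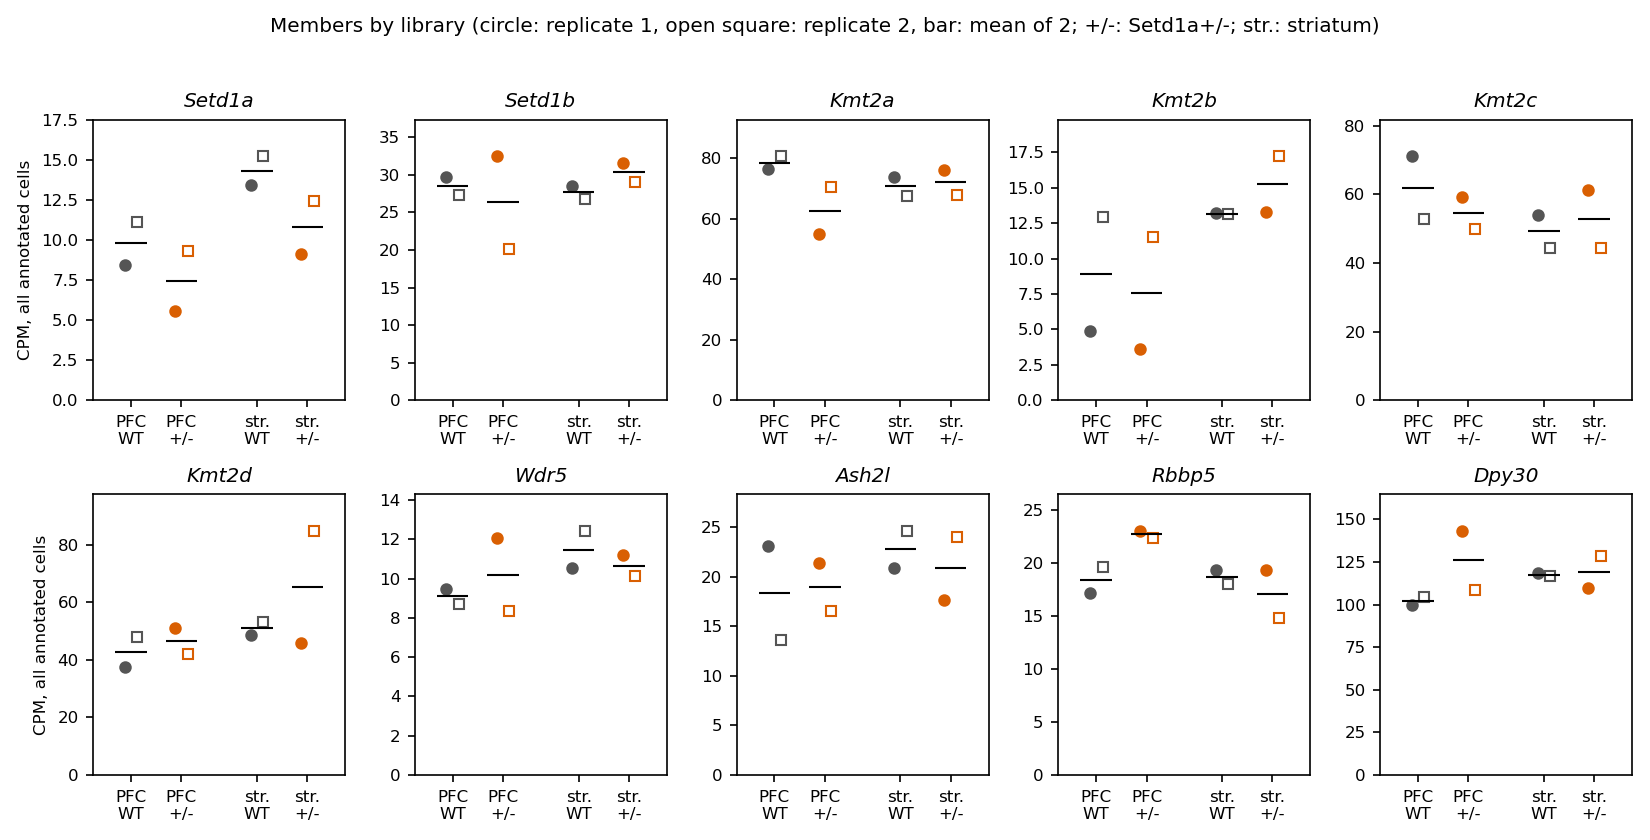
Level of each of the 10 genes in CPM (vertical axis, from 0) summed over all annotated cells of each library, for WT and Setd1a+/- libraries of the PFC and of the striatum; each point is 1 library and each short line the mean of 2. Setd1a lies between 5.59 and 15.2 CPM and is lower in the Setd1a+/- library of each same-numbered pair, whereas the point of Kmt2d at 84.9 CPM stands above the other 7 libraries.

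Setd1b, the closest paralog of Setd1a, was at 29.7 and 27.3 CPM (WT) and 32.5 and 20.2 CPM (Setd1a+/-) in the PFC, where the Setd1a+/- libraries lay on both sides of the WT libraries. In the striatum, Setd1b was at 28.5 and 26.8 CPM in the WT libraries against 31.6 and 29.1 CPM in Setd1a+/-, so that both Setd1a+/- libraries lay above both WT libraries. The log2 fold change was −0.12 in the PFC (95% interval −0.86 to 0.62) and 0.16 in the striatum (−0.33 to 0.66). Over both tissues it was 0.02 (−0.32 to 0.36), an interval that reaches from a fold of 0.804 to a fold of 1.28.

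Kmt2a, the MLL1 enzyme, was at 76.3 and 80.6 CPM in the WT libraries against 54.9 and 70.3 CPM in the Setd1a+/- libraries of the PFC. The Setd1a+/- libraries were the lower ones, without overlap, and the log2 fold change was −0.32 (95% interval −1.003 to 0.37; −0.55 to −0.10 when 1 library was left out). The same order held within the neurons of the PFC, at 106 and 93.3 CPM (WT) and 65.5 and 87.3 CPM (Setd1a+/-). It also held in the sum over the other cells of the PFC. That sum was at 54.9 and 47.9 CPM (WT) and 37.2 and 40.5 CPM (Setd1a+/-). Of the types in it, endothelial cells and NFO had both Setd1a+/- libraries below both WT libraries. The genotypes overlapped in PFC astrocytes, microglia, oligodendrocytes and oligodendrocyte progenitors, where Setd1a+/- 2 lay above WT 2. In the striatum, Kmt2a was at 73.7 and 67.5 CPM in the WT libraries against 75.9 and 67.9 CPM in Setd1a+/-. These values overlapped, with a log2 fold change of 0.06.

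Kmt2b, the MLL2 enzyme, followed the replicate number rather than the genotype in the PFC, at 4.88 and 12.9 CPM (WT) and 3.65 and 11.5 CPM (Setd1a+/-). Its log2 fold change of −0.23 between genotypes had the widest interval of the 10 members, −2.07 to 1.61, in a fit with no term for replicate number. With the replicate block it was −0.28, and its standard error was 0.322 in place of 0.738 (unadjusted edgeR p 0.411). Within the same-numbered pairs, Setd1a+/- was at 0.747 and 0.889 of WT. In the striatum, Kmt2b was at 13.2 CPM in both WT libraries and at 13.3 and 17.2 CPM in the Setd1a+/- libraries. The striatal groups did not overlap, with 1 of the Setd1a+/- libraries next to WT, and the log2 fold change was 0.24 (95% interval −0.42 to 0.90; 0.0211 to 0.44 when 1 library was left out).

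Kmt2c, the MLL3 enzyme, was at 71.1 and 52.9 CPM in the WT libraries against 59.1 and 50.003 CPM in the Setd1a+/- libraries of the PFC, and at 54.1 and 44.4 CPM in the WT libraries against 61.2 and 44.5 CPM in the Setd1a+/- libraries of the striatum. The genotypes overlapped in both tissues, and the log2 fold changes were −0.18 and 0.13. Over both tissues the fold lay within 0.805 to 1.21 (95% interval).

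Kmt2d, the MLL4 enzyme, was at 37.7 and 47.9 CPM (WT) and 51.0 and 42.0 CPM (Setd1a+/-) in the PFC. In the striatum it was at 48.8 and 53.3 CPM in the WT libraries against 45.9 and 84.9 CPM in Setd1a+/-. The genotypes overlapped in both tissues, and the highest striatal value came from Setd1a+/- 2 alone, the library with the highest share of neurons. In that library Kmt2d was high in neurons (88.5 CPM, against 54.5 to 57.8 CPM in the neurons of the other striatal libraries) and in other cells (71.6 CPM, against 40.6 to 44.2 CPM). The log2 fold change in the striatum was 0.39 (95% interval −0.52 to 1.30), was −0.14 without Setd1a+/- 2, and was 0.79 with an edgeR FDR of 0.0156 without Setd1a+/- 1. The last of these values stayed under the 2-fold cutoff used for the striatum, and its spread comes from the WT libraries alone, since 1 Setd1a+/- library is left and is assumed to vary like them. Over both tissues Kmt2d had a log2 fold change of 0.24 (−0.16 to 0.64), or a fold of 0.893 to 1.55, and the estimate ranged from 0.0573 to 0.37 when 1 library was left out.

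The core subunits showed no called difference either. Wdr5, which holds the complex together and binds the histone tail, was at 9.46 and 8.72 CPM in the WT libraries against 12.0 and 8.33 CPM in the Setd1a+/- libraries of the PFC, and at 10.5 and 12.4 CPM (WT) and 11.2 and 10.1 CPM (Setd1a+/-) in the striatum. Ash2l, which together with Rbbp5 raises the activity of the enzymes, was at 23.1 and 13.6 CPM in the WT libraries against 21.4 and 16.5 CPM in the Setd1a+/- libraries of the PFC, and at 20.9 and 24.6 CPM in the WT libraries against 17.7 and 24.0 CPM in the Setd1a+/- libraries of the striatum. The genotypes overlapped for Wdr5 and Ash2l in both tissues. Their log2 fold changes lay between −0.10 and 0.16.

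Rbbp5 was at 17.1 and 19.6 CPM (WT) and 23.0 and 22.3 CPM (Setd1a+/-) in the PFC. Dpy30, which binds Ash2l, was at 100.03 and 104.7 CPM in the WT libraries against 143 and 108.7 CPM in the Setd1a+/- libraries of the PFC. Both Setd1a+/- libraries were above both WT libraries for these 2 genes, and the log2 fold changes were 0.30 (95% interval −0.36 to 0.97) for Rbbp5 and 0.29 (−0.33 to 0.92) for Dpy30. When 1 library was left out, they ranged from 0.19 to 0.47 and from 0.14 to 0.45. In the striatum, Rbbp5 was at 19.3 and 18.0 CPM in the WT libraries against 19.3 and 14.8 CPM in Setd1a+/-, and Dpy30 was at 118.4 and 116.6 CPM (WT) and 109.9 and 128.8 CPM (Setd1a+/-). The striatal values overlapped, with log2 fold changes of −0.10 and 0.05.

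**Figure D2:**
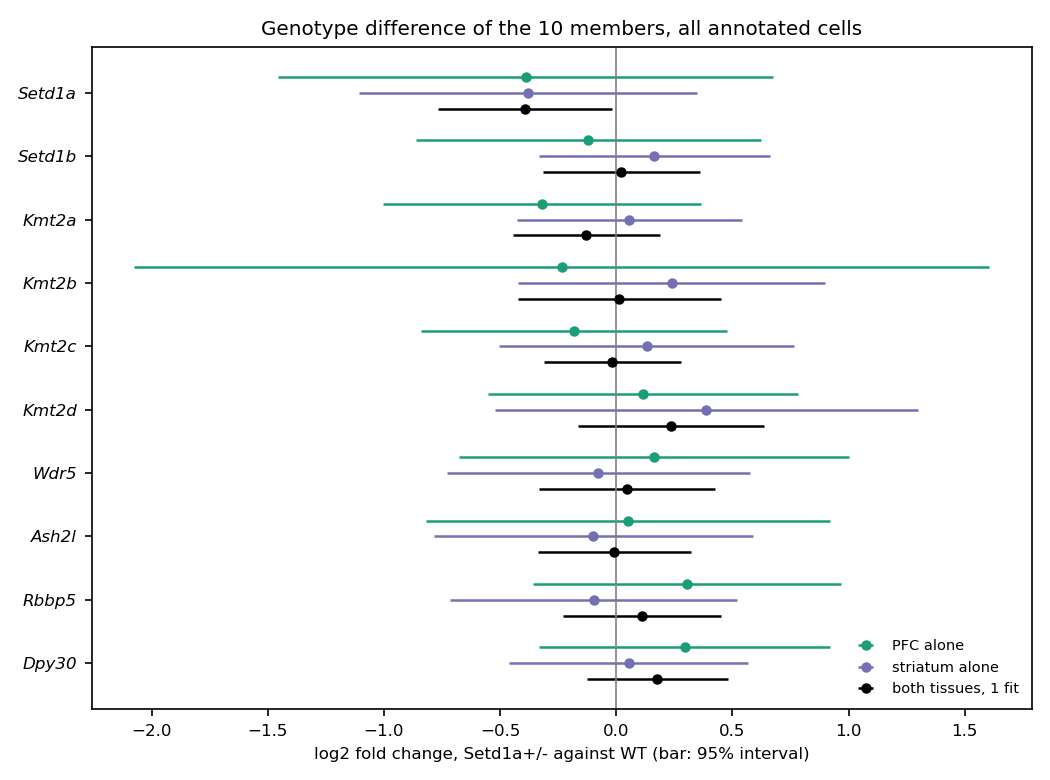
Log2 fold change of Setd1a+/- over WT (horizontal axis) with its 95% interval for each of the 10 genes, from edgeR fits of all annotated cells in the PFC and in the striatum, with no term for replicate number, and in both tissues together, with that term; the line at 0 is no difference. Setd1a has an estimate between −0.39 and −0.38 in the 3 fits, and only its interval in the fit of both tissues, −0.77 to −0.02, lies on one side of 0. That fit took the libraries of both tissues as independent, though whether they came from the same mice is not stated.

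By edgeR, 0 of 10 members were called in the PFC, where 0% of 14226 genes were called, and 0 of 10 in the striatum, where 0% of 14671 genes were called. No member had an unadjusted edgeR p under 0.05 in either tissue, beside 0.316% of all genes in the PFC and 0.341% in the striatum. These fits held no term for replicate number, by which 18.6% of all genes in the PFC and 16.7% in the striatum had such a p. That variation stays in the error of these fits, so the lack of small p-values says little about equal levels. DESeq2 called 0 members in either tissue. In the PFC, 2 members lay above WT in both Setd1a+/- libraries and 1 below, beside 7.77% and 8.89% of all genes. In the striatum, the numbers were 2 above (Setd1b and Kmt2b) and 1 below (Setd1a), beside 7.05% and 12.1% of all genes. The median log2 fold change of the 10 members was −0.03 in the PFC and 0.05 in the striatum, against −0.02 and 0.01 over all genes. In the fit of both tissues, 0 of 10 were called (0% of all genes) and Setd1a was the 1 member with an unadjusted edgeR p under 0.05, beside 2.32% of all genes.

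Summed over the 5 paralogs, the level was 219.7 and 222 CPM in the WT libraries against 201 and 194 CPM in the Setd1a+/- libraries of the PFC. In the striatum, the sum was 218 and 205 CPM in the WT libraries against 228 and 244 CPM in Setd1a+/-. The sums did not overlap between genotypes in either tissue and lay in opposite directions, below WT in the PFC and above WT in the striatum. The 4 core subunits together were at 149.7 and 147 CPM (WT) and 199.7 and 156 CPM (Setd1a+/-) in the PFC, and at 169 and 172 CPM in the WT libraries against 158 and 178 CPM in the Setd1a+/- libraries of the striatum. They lay above WT in the PFC and overlapped in the striatum. Such sums follow the genes with the most UMIs, Kmt2a, Kmt2c and Kmt2d among the paralogs and Dpy30 among the core subunits, and were not tested.

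The difference between the genotype effects in the 2 tissues was tested itself, as an interaction. By edgeR, 0 of 10 members differed (0% of 15113 genes), and 0 had an unadjusted p under 0.05, beside 0.311% of all genes. For Setd1a, the effect in the striatum minus that in the PFC was 0.04 on the log2 scale (95% interval −1.19 to 1.26).

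The genotypes were then compared within each annotated cell type that had at least 10 cells in every library. By edgeR, no member was called in any type. Setd1a had a negative log2 fold change in each of the 9 groups of cells where it could be tested, but 3 of the 9 are subtypes of the PFC excitatory neurons, whose cells were counted there too, and in 4 of the 9 the sign turned without 1 library. A member could be tested where its UMIs were high enough, which was the case for 1 to 10 members per PFC type, 5 to 10 per PFC excitatory subtype and 3 to 10 per striatal type. In the 8 PFC types, 0 of 48 tests of a member were called, beside 0% of all genes, and in 20 of the 48 the genotypes did not overlap, beside 26.4% of all genes. In the 6 PFC excitatory subtypes, 0 of 45 were called, beside 0%, and in 13 the genotypes did not overlap, beside 26.7%. In the 10 striatal types, 0 of 74 were called, beside 0.00544% of all genes, and in 30 they did not overlap, beside 31%. Unadjusted p was under 0.05 in 1, 1 and 3 of these tests, beside 1.7%, 1.6% and 2.62% of all genes. DESeq2 also called 0 members in these types. The subtype DL-Pou3f1, with 7 and 8 cells in 2 of its libraries, was not tested.

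In PFC excitatory neurons, Setd1a was at 11.1 and 12.5 CPM in the WT libraries against 6.41 and 10.5 CPM in Setd1a+/-, with both Setd1a+/- libraries below WT. In striatal D2 MSNs, the neurons of the indirect pathway, it was at 18.4 and 16.1 CPM (WT) and 11.7 and 11.4 CPM (Setd1a+/-), again without overlap. D1 MSNs, the neurons of the direct pathway, had 14.1 and 15.7 CPM in the WT libraries against 13.0 and 13.6 CPM in Setd1a+/-, which did not overlap but lay close together. The edgeR log2 fold changes were −0.49 (95% interval −1.37 to 0.39), −0.52 (−1.17 to 0.13) and −0.13 (−0.69 to 0.44). Without any 1 library they ranged from −0.93 to −0.14, −0.61 to −0.44 and −0.21 to −0.03. The most negative estimate was in striatal endothelial cells, at 14.5 and 19.1 CPM in the WT libraries against 7.71 and 12.7 CPM in Setd1a+/-, with a log2 fold change of −0.83 (−1.77 to 0.11) and an unadjusted edgeR p of 0.0783, and it ranged from −1.08 to −0.36 without any 1 library. In striatal interneurons (13.6 and 16.5 against 9.85 and 14.1 CPM) and PFC endothelial cells (8.52 and 13.3 against 6.76 and 14.5 CPM) the genotypes overlapped, with log2 fold changes of −0.25 and −0.11. The interneuron value ranged from −0.56 to −0.0421 when 1 library was left out, and Setd1a+/- was at 0.723 and 0.860 of WT in the same-numbered pairs there. The excitatory subtypes DL-Etv1, DL-Foxp2 and SL-Cux2 also overlapped and had log2 fold changes of −0.11, −0.19 and −0.44. In DL-Foxp2 the mean CPM did not share that sign, at 12.6 and 8.91 CPM in the WT libraries (mean 10.8) against 6.35 and 15.4 CPM in Setd1a+/- (mean 10.9). The sign turned without 1 library in these 3 subtypes and in PFC endothelial cells. The sizes were not tested against each other between types of the same tissue.

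**Figure D3:**
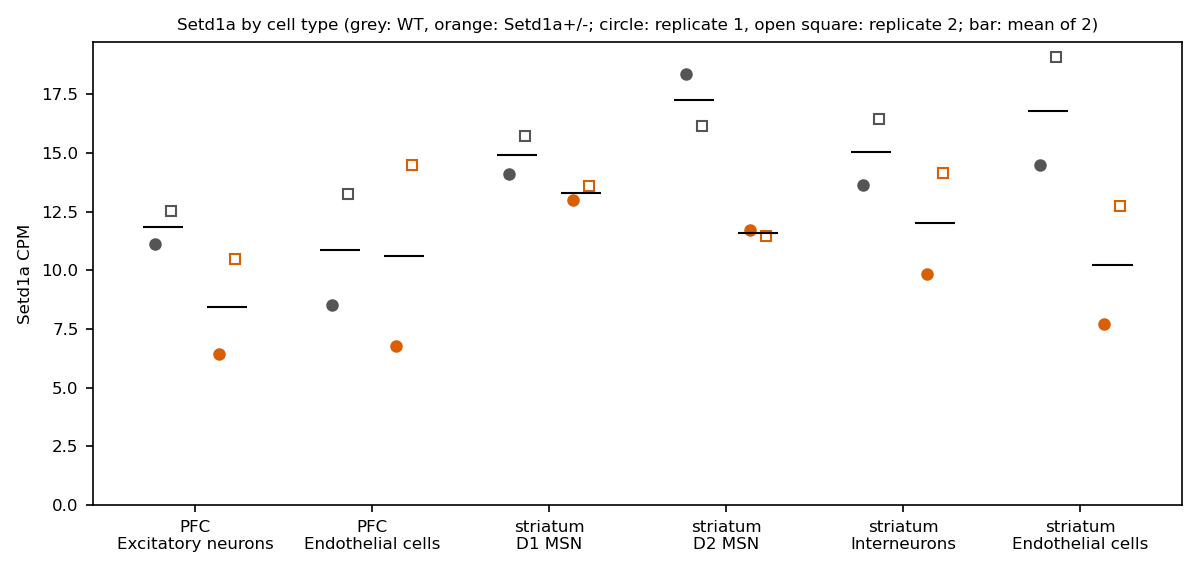
Setd1a level in CPM (vertical axis, from 0) in 6 annotated cell types, with 1 point per library for WT and Setd1a+/- libraries and a short line at the mean. WT and Setd1a+/- points are apart in PFC excitatory neurons, D1 and D2 MSNs and striatal endothelial cells, and overlap in PFC endothelial cells and striatal interneurons.

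In 5 tests of a member in a single type, the genotypes did not overlap and the unadjusted edgeR p was under 0.05, with an FDR close to 1 in each. PFC interneurons had 48 to 100 cells per library. Of the 6 members tested there, 4 had both Setd1a+/- libraries below both WT libraries, beside 15.9% of all genes. Kmt2a, among these 4, was at 143 and 129 CPM (WT) and 68.8 and 72.8 CPM (Setd1a+/-). Its log2 fold change was −0.93 (95% interval −1.57 to −0.28), with an unadjusted edgeR p of 0.0101, beside 1.67% of genes with such a p in the lower direction. The difference of this effect from that in striatal interneurons was 1.05 (0.29 to 1.80), with an unadjusted edgeR p of 0.0100 and an FDR of 0.99994. Over the 7 shared types, it was the 1 of 48 interaction tests of a member with a p under 0.05, beside 2.21% of all genes, and 0 were called, beside 0%.

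The other such differences were higher in Setd1a+/- libraries. Kmt2b in striatal endothelial cells was at 13.3 and 15.1 CPM in the WT libraries against 21.5 and 29.1 CPM in Setd1a+/-, a log2 fold change of 0.79 (95% interval 0.03 to 1.56), beside 1.06% of genes with such a p in that direction. Dpy30 in striatal neural stem cells and neuroblasts (NB) was at 187 and 164 CPM in the WT libraries against 232 and 302 CPM in Setd1a+/-, a log2 fold change of 0.57 (0.03 to 1.10), beside 1.42%. Kmt2d in striatal interneurons was at 53.0 and 45.2 CPM (WT) and 54.2 and 97.1 CPM (Setd1a+/-), a log2 fold change of 0.69 (0.11 to 1.27), beside 1.6%. Rbbp5 in DL-Foxp2 neurons, a deep-layer excitatory subtype, was at 11.7 and 14.7 CPM in the WT libraries against 22.2 and 41.1 CPM in Setd1a+/-, a log2 fold change of 1.11 (0.09 to 2.14), beside 1.02%. Both Setd1a+/- libraries were above both WT libraries in these 4 cases, for Kmt2d with 1 of them close to WT. The Kmt2d value was 0.18 without striatum Setd1a+/- 2 and 1.02, with an edgeR FDR of 0.0325 and so past the threshold, without striatum Setd1a+/- 1, where again the 1 Setd1a+/- library left is assumed to vary like the WT libraries. The Rbbp5 value ranged from 0.67, without PFC Setd1a+/- 2, to 1.62 when 1 library was left out. In endothelial cells of the PFC, Kmt2b was at 7.01 and 26.5 CPM (WT) and 3.76 and 14.5 CPM (Setd1a+/-). The genotypes overlapped there, and Setd1a+/- was the lower library of each same-numbered pair.

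The next comparison described where in the tissue each member was expressed. Kmt2a was higher and Kmt2c lower in neurons than in the other cells of the same library, in both tissues and in every library. Neurons were excitatory neurons and interneurons in the PFC and D1 and D2 MSNs and interneurons in the striatum, and NB were left out. The cell types come from clusters that the authors made from the expression of these same cells. The other cells are a sum over types, and not every type was apart from neurons. Kmt2a in endothelial cells was at 56.3 to 82.2 CPM in the PFC, where excitatory neurons were at 65.2 to 103 CPM. In the striatum it was at 63.7 to 88.7 CPM, where D2 MSNs were at 60.9 to 98.4 CPM. Kmt2c in microglia had a mean of 47.0 CPM in the PFC, against 48.0 CPM in excitatory neurons. Its striatal mean there was 41.3 CPM, against 44.2 CPM in D1 MSNs. Other types overlapped neurons too. In the PFC, Kmt2c was at 45.5 to 69.0 CPM in oligodendrocyte progenitors and 41.4 to 63.2 CPM in oligodendrocytes. NFO were at 26.9 to 71.4 CPM and excitatory neurons at 44.6 to 52.6 CPM. Striatal Kmt2c also overlapped D1 MSNs in oligodendrocytes and their progenitors. Striatal Kmt2a in astrocytes (50.95 to 81.1 CPM) and microglia (42.0 to 104.6 CPM) overlapped D2 MSNs.

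Kmt2a in the PFC was at 65.5 to 106 CPM (median 90.3) over the neurons of the 4 libraries and at 37.2 to 54.9 CPM (median 44.2) over the other cells. In striatal cells Kmt2a was at 69.9 to 105 CPM in neurons and 50.4 to 56.7 CPM in other cells. The ranges did not overlap in either tissue. With each library as a block, edgeR gave a log2 fold change of neurons over other cells of 0.84 (95% interval 0.62 to 1.05, FDR 1.7e-05) in the PFC and 0.61 (0.39 to 0.84, FDR 0.000254) in the striatum. Kmt2c was at 43.6 to 51.1 CPM in PFC neurons and 61.2 to 87.0 CPM in other PFC cells, and at 36.2 to 48.1 CPM in striatal neurons and 62.3 to 77.2 CPM in other striatal cells. Its ranges were also apart, in the opposite order, with log2 fold changes of −0.74 (−0.98 to −0.50, FDR 9.19e-05) and −0.77 (−0.99 to −0.56, FDR 3.29e-05).

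**Figure D4:**
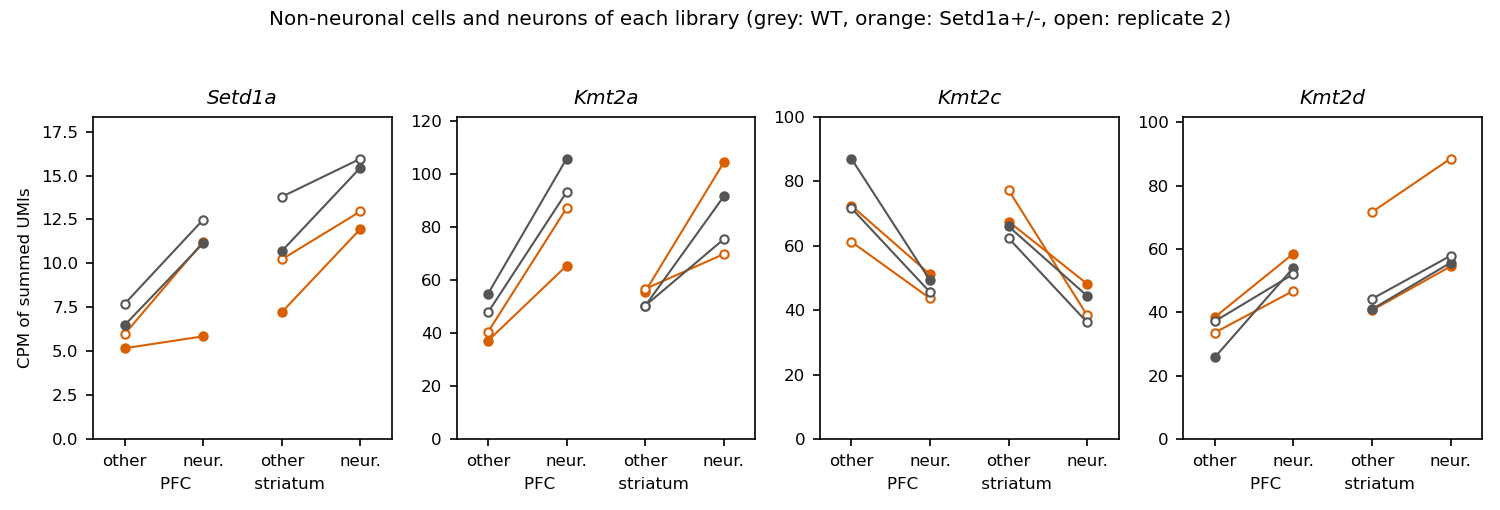
Level in CPM (vertical axis, from 0) of Setd1a, Kmt2a, Kmt2c and Kmt2d summed over the non-neuronal cells and over the neurons of each library, with a line joining the values of 1 library. For Kmt2a the lines rise from other cells to neurons in 8 of 8 libraries, for Kmt2c they fall in 8 of 8, and those of Setd1a and Kmt2d also rise in 8 of 8.

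Setd1a was at 5.85 to 12.5 CPM in PFC neurons and 5.17 to 7.70 CPM in other PFC cells, and at 12.0 to 16.0 CPM in striatal neurons and 7.23 to 13.8 CPM in other striatal cells. The ranges overlapped over libraries, whereas within each library the neurons were higher. The log2 fold change was 0.54 in the PFC (edgeR FDR 0.0303) and 0.36 in the striatum (edgeR FDR 0.0493), both under the 1.5-fold cutoff. Leaving out 1 library took the edgeR FDR of Setd1a past 0.05 in 3 of 4 cases in each tissue, to at most 0.120 in the PFC and 0.153 in the striatum, and made Setd1a pass the test in the PFC without Setd1a+/- 1 (0.66, edgeR FDR 0.0229). Kmt2d had a log2 fold change of 0.55 in the PFC (edgeR FDR 0.00164) and 0.31 in the striatum (edgeR FDR 0.00801), was also higher in the neurons of every library, and passed in the PFC without Setd1a+/- 2 (0.65, edgeR FDR 0.00197). Of the core subunits, Dpy30 differed at an edgeR FDR of 0.00782 in the PFC (log2 fold change 0.33) and Ash2l at 0.0184 in the striatum (0.48), both higher in neurons and under the cutoff. Setd1b, Kmt2b, Wdr5 and Rbbp5 had log2 fold changes of −0.13 to 0.28, and none of these passed an FDR of 0.05, nor did Ash2l in the PFC (−0.26) and Dpy30 in the striatum (0.08). In each tissue, 1 of 10 members was called higher in neurons (Kmt2a) and 1 lower (Kmt2c), beside 31.5% and 33.6% of 12826 genes in the PFC and 27.4% and 33.2% of 13421 genes in the striatum. With library size alone as the scaling, Setd1a and Kmt2d also passed in the PFC, and the median of all genes moved from −0.02 to 0.10 on the log2 scale. Kmt2a in the striatum fell just under the 1.5-fold cutoff without Setd1a+/- 1 (0.58) or without WT 1 (0.56), with an edgeR FDR of 0.00109 and 0.00569.

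Depth differs between these cells, and the share of cells with at least 1 UMI follows it. In the PFC, 3.84 to 9.39% of neurons and 1.14 to 1.71% of other cells had a Setd1a UMI. After every cell was thinned to 1000 UMIs, the shares were 1.02 to 1.47% and 0.427 to 0.693%. In the striatum, 3.70 to 6.33% of neurons and 1.74 to 3.204% of other cells had a Setd1a UMI, and 1.44 to 1.95% and 0.752 to 1.21% after thinning. Neurons stayed above other cells at equal depth in both tissues, with shares near the level of 1 UMI in 100 cells. Kmt2a had a UMI in 32.5 to 56.8% of PFC neurons and 7.48 to 12.4% of other PFC cells, and in 7.80 to 9.83% and 3.63 to 4.85% after thinning.

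No annotated type is one that should lack these genes, so the RNA outside cells was measured in droplets of 1 to 50 UMIs. Setd1a was at 6.88 to 14.5 CPM there in the PFC, above the cells of the same library in 3 of 4 libraries, and at 17.8 to 28.8 CPM in the striatum, above the cells in 4 of 4. Kmt2d was at 57.5 to 112 CPM in the PFC and 76.7 to 192 CPM in the striatum, above the cells in all 8 libraries, as was Wdr5, at 9.004 to 17.7 and 18.0 to 23.5 CPM. Kmt2b and Rbbp5 were above the cells in 4 of 4 striatal libraries, at 23.7 to 27.4 and 20.2 to 37.8 CPM, and the range of Kmt2b lies between its levels in the endothelial cells of the Setd1a+/- libraries (21.5 and 29.1 CPM). Kmt2a was at 32.9 to 59.6 CPM and 57.6 to 63.0 CPM, below the cells in all 8. The part of this RNA in the levels of the cell types was not tested.

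Across the annotated types, levels are given as the mean over the 4 libraries of a tissue, and neighbours in the order overlapped in their ranges unless said otherwise. These means hold both genotypes. With the genotypes taken apart, the highest type was the same in WT and Setd1a+/- libraries for 5 of 10 members in the PFC (Setd1b, Kmt2c, Kmt2d, Wdr5 and Dpy30) and for 4 of 10 in the striatum (Kmt2a, Wdr5, Rbbp5 and Dpy30). Setd1a was highest in PFC interneurons (10.8 CPM), endothelial cells (10.8 CPM) and excitatory neurons (10.1 CPM) and lowest in oligodendrocytes (4.02 CPM). In the striatum it was highest in D2 MSNs (14.4 CPM) and D1 MSNs (14.1 CPM), followed by interneurons and endothelial cells (13.5 CPM each), and lowest in microglia (5.34 CPM). In these means over both genotypes, neurons and endothelial cells were at the head of the order of Setd1a in both tissues, with overlapping ranges. Striatal endothelial cells ranged from 7.71 CPM in a Setd1a+/- library to 19.1 CPM in a WT library. PFC interneurons gave only 16 Setd1a UMIs from 298 cells, and 1 library had 0.

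Setd1b ranged from 43.0 CPM in endothelial cells to 11.1 CPM in microglia in the PFC, and from 47.5 CPM in NB to 21.1 CPM in NFO in the striatum. NB led through the WT libraries, at 61.1 and 64.6 CPM against 31.7 and 32.6 CPM in Setd1a+/-, where endothelial cells were higher (mean 43.7 CPM). The genotypes did not overlap in NB, with a log2 fold change of −0.93 (95% interval −1.88 to 0.0233) and an unadjusted edgeR p of 0.0553 from 52 UMIs. In NB, 17.7% of all genes had both Setd1a+/- libraries below both WT libraries. Kmt2a ranged in the PFC from 103 CPM in interneurons and 86.8 CPM in excitatory neurons to 27.5 CPM in oligodendrocytes and 22.7 CPM in microglia. In the WT libraries of the PFC its mean was 136 CPM in interneurons and 96.7 CPM in excitatory neurons, and in Setd1a+/- libraries 70.8 and 76.9 CPM. Its striatal levels ranged from 92.9 CPM in interneurons, 86.9 CPM in D1 MSNs and 79.5 CPM in D2 MSNs to 27.6 CPM in NFO and 25.0 CPM in oligodendrocytes. In the striatum the oligodendrocyte lineage was at the low end for Kmt2a, and its progenitors (OPC), at 43.9 CPM, had a range wholly above that of NFO. Kmt2b had its highest mean in endothelial cells (12.9 CPM in the PFC, 19.8 CPM in the striatum), which led only in WT libraries in the PFC and only in Setd1a+/- libraries in the striatum, and lowest in oligodendrocytes (4.13 and 5.68 CPM).

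Kmt2c had another order. In the PFC it was highest in endothelial cells, at 111 CPM (97.7 to 129 CPM over the libraries), with a range above that of astrocytes (79.4 CPM), and lowest in interneurons (40.3 CPM). In the Setd1a+/- libraries of the PFC, NFO had a lower mean (31.0 CPM) than interneurons (34.3 CPM). Striatal levels were highest in NFO (88.0 CPM), endothelial cells (83.9 CPM) and astrocytes (83.1 CPM) and lowest in D2 MSNs (37.4 CPM). Striatal microglia were next, at 41.3 CPM, with a range of 14.9 to 60.1 CPM. Kmt2d was highest in interneurons in the PFC (65.0 CPM). In the striatum D1 MSNs (65.9 CPM), endothelial cells (63.1 CPM), NFO (62.6 CPM), interneurons (62.4 CPM) and D2 MSNs (62.0 CPM) lay close together. The highest library in each of these types was Setd1a+/- 2, at 80.1 to 115 CPM. NFO ranged from 21.9 to 115 CPM, from 23 UMIs in all. Kmt2d was lowest in oligodendrocytes in both tissues (17.0 and 29.3 CPM).

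**Figure D5:**
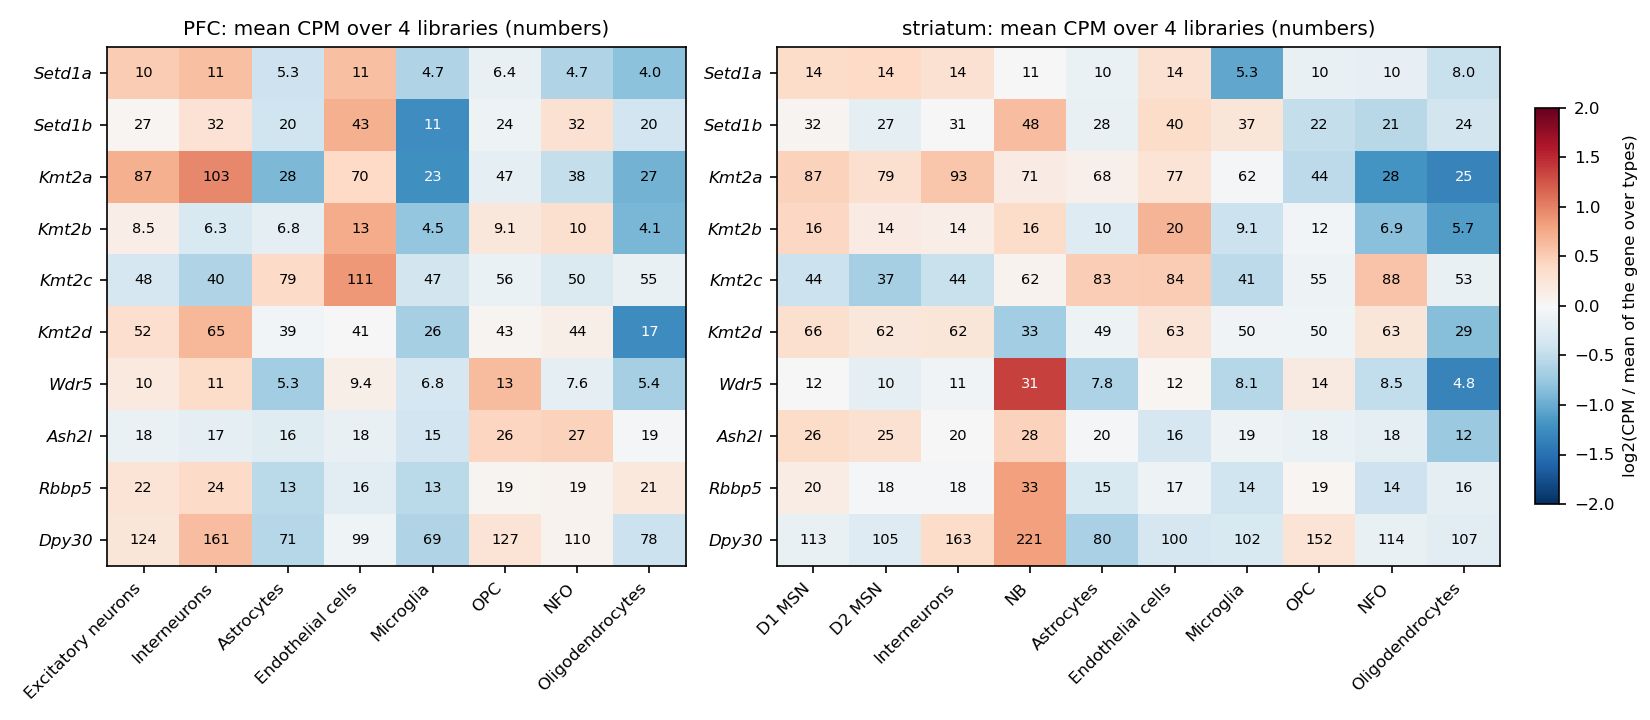
Mean level in CPM over the 4 libraries of a tissue (numbers in the cells) of each of the 10 genes in each annotated cell type, with colour scaled within a gene. Kmt2a has its highest mean over both genotypes in interneurons (103 CPM in the PFC, where this order holds in WT libraries only, and 92.9 CPM in the striatum) and is low in oligodendrocytes. Kmt2c has its lowest mean over both genotypes in PFC interneurons (40.3 CPM) and D2 MSNs (37.4 CPM).

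In the striatum, the mean of each of the 4 core subunits was highest in NB, for Ash2l through 1 library. Wdr5 was at 30.8 CPM in NB and 4.76 CPM in oligodendrocytes, which is a ratio of 6.47. Ash2l was at 27.7 CPM in NB, with 20.4 and 58.7 CPM in the WT libraries against 23.4 and 8.15 CPM in Setd1a+/- from 31 UMIs in all, next to 25.9 CPM in D1 MSNs, and was lowest in oligodendrocytes (12.0 CPM). Rbbp5 was at 32.7 CPM in NB and lowest in NFO (13.8 CPM). Dpy30 was at 221 CPM in NB and lowest in astrocytes (79.8 CPM), whose range of 63.7 to 92.7 CPM lay just below that of endothelial cells (92.87 to 103.9 CPM). The PFC has no NB group, and there the order differed between the subunits, with Rbbp5 and Dpy30 highest in interneurons (23.7 and 161 CPM) and lowest in microglia (12.6 and 69.3 CPM), Wdr5 highest in OPC (13.4 CPM) and Ash2l in NFO (26.5 CPM).

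Among the 7 excitatory subtypes of the PFC, all neighbours in the order overlapped for every member. Setd1a had means of 10.5 to 10.9 CPM in 5 subtypes, 7.82 CPM in DL-Pou3f1 and 4.90 CPM in SL-Myh7, from 4 and 6 UMIs in all. It had 0 UMIs in both Setd1a+/- libraries of DL-Pou3f1, which had too few cells to be tested, and in 1 Setd1a+/- library of SL-Myh7, where it had too few UMIs. Kmt2a lay between 79.5 CPM in SL-Cux2 and 100.5 CPM in DL-Tshz2. Rbbp5 was lowest in SL-Cux2 (16.9 CPM) and highest in DL-Etv1 (29.1 CPM).

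Members were compared between PFC and striatum within 7 cell types named in both tissues. Tissue goes together with dissection, digestion time and the clustering run, which cannot be told apart from it. By edgeR, 0 of 39 tests of a member were called, beside 6.63% of all genes, and 6 had an unadjusted p under 0.05, beside 20.3%. The smallest FDR was that of Kmt2d, which had a striatum over PFC log2 fold change of 0.64 in endothelial cells (edgeR FDR 0.0631) and of 0.89 in oligodendrocytes (edgeR FDR 0.0742). Kmt2a in astrocytes, at 28.4 CPM in the PFC and 67.9 CPM in the striatum, had a log2 fold change of 0.96 (edgeR FDR 0.0979). It passed without PFC WT 1 (1.504, edgeR FDR 0.0204), and without PFC WT 2 Kmt2d (0.74, edgeR FDR 0.0283) and Kmt2b (1.46, edgeR FDR 0.0398) passed in endothelial cells.

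Replicate number was also compared, since each number holds 1 library of each genotype. In the PFC, Kmt2b was called higher in replicate 2 than in replicate 1, with a log2 fold change of 1.60 (95% interval 0.86 to 2.33, edgeR FDR 0.0225). It was 1 of 10 members called, beside 5.95% of all genes called and 3.53% called in that direction. DESeq2 did not call it (FDR 0.0725). The same split was present in PFC excitatory neurons, where Kmt2b was at 3.97 and 3.64 CPM in the libraries of replicate 1 and at 13.0 and 13.6 CPM in those of replicate 2, and in droplets of 1 to 50 UMIs, at 3.75 and 5.41 CPM against 13.9 and 12.8 CPM. In the striatum, 0 of 10 members were called by edgeR or DESeq2, beside 0.00682% of genes, and 0 had an unadjusted edgeR p under 0.05, beside 16.7% of genes.

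A list of 25 further genes of H3K4 methylation was compared in the same fits: subunits particular to single complexes, such as Cxxc1 and Men1, other SET domain proteins, and demethylases of the KDM1 and KDM5 families. Of these, 24 could be tested in the PFC, 23 in the striatum and 24 in both tissues together, 0 were called by edgeR in any of the 3 fits, beside 0% of all genes, and 0 had an unadjusted p under 0.05 in a single tissue, beside 0.316% and 0.341% of all genes. The median log2 fold change of the list was −0.08 in the PFC and 0.04 in the striatum, against −0.02 and 0.01 over all genes. Kdm1b, an H3K4 demethylase, was the 1 of 24 genes with an unadjusted p under 0.05 in the fit of both tissues, beside 2.32% of all genes. Its log2 fold change was 0.48 (95% interval 0.03 to 0.93, edgeR FDR 0.9998), and that fit was chosen after the data had been seen. Between neurons and other cells, 7 of 22 were called in each tissue, beside 65.2% of all genes in the PFC and 60.5% in the striatum. Those called in both tissues, named after their values were seen, were Bod1, Psip1 and Smyd3, which were higher in neurons, and Kdm1b, which was lower.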

How the data were processed

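The authors aligned the reads with Cell Ranger 3.0.2 to mm10 and used Seurat 3.2.0, as named in the submitters' processing notes. The deposited matrices hold raw UMI counts per gene and droplet; the deposited cell tables give the authors' cell types for cells with at least 800 genes and other values such as UMI totals. How doublets were treated is not given in the sources used here. For each library, the UMIs of annotated cells were summed by cell type (at least 10 cells in every library) and tested with edgeR 4.0.16 (quasi-likelihood, TMM, filterByExpr with a minimum count of 10) over all genes, with Benjamini-Hochberg adjustment per fit. Calls needed an FDR under 0.05 and a fold above 1.5, or above 2 for genotype in the striatum, and for the interaction the FDR alone. The cutoffs for genotype within a tissue are those that the study used on single cells. All p-values in the text come from edgeR unless DESeq2 is named. Replicates are libraries, 2 per group, each of pooled mice; whether both tissues came from the same mice is not stated. Genotype was fitted within each tissue without a block, and over both tissues with a term for each tissue and replicate number. All fits of both tissues took their libraries as independent. By the study's methods a biological replicate holds 1 WT and 1 Setd1a+/- library; deviations from the genotype means correlated across genes between same-numbered libraries (0.537 over 10995 PFC genes, 0.678 over 11424 striatal genes). In single types, a member is named with values where the groups did not overlap and unadjusted p was under 0.05, and Setd1a wherever it was tested. Further values in single types, such as those of Setd1b in NB, were given after they had been seen. Shares of cells were also computed after thinning to 1000 UMIs. The members and lists were chosen with earlier results of these data known. The scripts were tested on simulated data. The alternatives tried were DESeq2, other scalings and filters, weights of cell composition, the replicate block and leaving out libraries. Gene positions and the exon were read from GENCODE vM21. The authors' gene-by-cell tables and their comparison columns were not used here.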

Additional observations from a re-analysis of the deposited data

Results flagged for a closer look

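In 5 of 60 groups of 4 libraries of a tissue, both genotypes together, 1 library lay far from the other 3 by Dixon's test, and chance gives this in about 1 in 20 groups. Kmt2d stood out in striatum Setd1a+/- 2, at 88.5 CPM in neurons and at 71.6 CPM in other cells, and so did Kmt2b over all annotated cells of that library, at 17.2 CPM. This library also had the highest share of neurons of the 8, 77.9%, and the part of cell makeup in these values was not tested. Setd1b in the neurons of striatum Setd1a+/- 1 was at 38.4 CPM, against 26.6 to 27.7 CPM in the neurons of the other striatal libraries. Dpy30 in the neurons of PFC Setd1a+/- 1 was at 156 CPM, against 114 to 120 CPM in the other PFC libraries.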

How the results depend on the processing

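Limits: each genotype has 2 libraries per tissue, and Setd1a rests on 46 to 206 UMIs per library. Of the values of single members under DESeq2, library size, no filter, other blocks and weights, 295 kept their direction and side of the threshold, 8 turned direction and 3 crossed the threshold. Genotype gave 0 members called in either tissue under each of these settings. With the replicate block, the Setd1a log2 fold change was −0.42 in the PFC and −0.39 in the striatum, and −0.38 without it in the fit of both tissues; the block changed no call of a member. The edgeR p of Setd1a in that fit was 0.0287 with library size and 0.154 without the block, and 0.0989 by DESeq2. Weighting cell types by their pooled share (limma) gave Setd1a −0.37 in the PFC and −0.41 in the striatum.

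Directions turned, with log2 fold changes near 0, for Wdr5 (0.00491) and Rbbp5 (0.0398) by genotype in the striatum with those weights, for Setd1b (−0.00321) and Kmt2b (−0.0156) over both tissues with library size, for Kmt2b in PFC neurons against other cells with library size (0.0251), and for Setd1b in striatal neurons with library size (0.0779), no filter (0.0732) or without mitochondrial and ribosomal genes (0.0265). With library size, 4 members were called between PFC neurons and other cells. Without the filter, 2 were called between tissues (Kmt2a in astrocytes and Kmt2d in oligodendrocytes), and DESeq2 called 0 between PFC replicates. The mean share of cells with a Setd1a UMI went from 6.91 to 1.21% in PFC neurons, 1.46 to 0.536% in other PFC cells, 5.05 to 1.70% in striatal neurons and 2.41 to 1.01% in other striatal cells after thinning. The cause was not tested.

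Leaving out each library in turn gave 0 to 1 members called in striatal types (Kmt2d, above), 1 to 2 between striatal neurons and other cells, 2 to 3 in the PFC, and 0 to 2 between tissues, without either PFC WT library. Replicate numbers could not be compared this way, since no residual degrees of freedom would remain. Of the values of single members without 1 library, 252 kept their direction and side of the threshold, 46 turned direction and the rest crossed the threshold. By genotype in the PFC, the log2 fold change ranged from −0.85 to −0.02 for Setd1a, −0.44 to 0.16 for Setd1b, −1.34 to 0.70 for Kmt2b, −0.32 to 0.0206 for Kmt2c, −0.0686 to 0.36 for Kmt2d, −0.0699 to 0.37 for Wdr5 and −0.23 to 0.45 for Ash2l. In the striatum it ranged from −0.64 to −0.15 for Setd1a, −0.00155 to 0.11 for Kmt2a, −0.0929 to 0.32 for Kmt2c, −0.14 to 0.79 for Kmt2d, −0.20 to 0.0577 for Wdr5, −0.36 to 0.13 for Ash2l, −0.28 to 0.0622 for Rbbp5 and −0.0866 to 0.19 for Dpy30. Over both tissues the ranges were −0.0390 to 0.16 for Setd1b, −0.16 to 0.10 for Kmt2b, −0.0893 to 0.0528 for Kmt2c, −0.0690 to 0.13 for Wdr5, −0.11 to 0.0664 for Ash2l, −0.0102 to 0.21 for Rbbp5, −0.20 to −0.0293 for Kmt2a and 0.0478 to 0.27 for Dpy30. Setd1a ranged from −0.60 to 0.72 in DL-Etv1, −0.76 to 0.57 in DL-Foxp2, −1.06 to 0.0437 in SL-Cux2 and −0.61 to 0.56 in PFC endothelial cells. Between neurons and other cells, Kmt2b ranged from −0.19 to 0.0582 and Wdr5 from −0.18 to 0.36 in the PFC, and Setd1b from −0.12 to 0.15 in the striatum.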

Other observations

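Profiles over 18 pairs of tissue and cell type were compared among 11556 genes, as Pearson's r of log2(CPM + 1). These profiles share their libraries and their depth, and r is a description only. The genes most like Setd1a were Ndufa7 (r = 0.87), a subunit of mitochondrial complex I, Gsk3a (0.86), a kinase, and Ppp1r12c (0.86), a subunit of myosin phosphatase. The genes most like Kmt2a were Smarca2 (0.95), an ATPase of the BAF chromatin remodelling complex, Armcx2 (0.93) and Hnrnpa0 (0.93), an RNA-binding protein. Among the methyltransferases, Kmt2c stood apart from the others over these profiles, with r of −0.21 to 0.14 against each of the other 5, whereas those 5 had r of 0.41 to 0.73 with each other.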
